A study of Arabidopsis thaliana with 12 samples.

Results

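The cold response of sid2-1 shoots was read from 6 of the 12 arrays of the study, namely the 3 arrays of mutant plants kept at 4 °C and the 3 arrays of mutant plants taken at 22 °C, as the array titles give them. The mutant sid2-1 is in the accession Col-0 and has a lesion in an isochorismate synthase that makes most of the salicylic acid induced by pathogens. Mutant plants of the 4 °C group were raised in soil at 22 °C for approximately 23 days and then held at 4 °C for 3 weeks, in a 12 h photoperiod, while mutant plants of the 22 °C group were taken after growth at 22 °C. All plants were harvested 4 h after lights on, and RNA of the entire aerial part was hybridized with 1 array per sample. Wild-type Col-0 plants at 4 °C and at 22 °C, with 3 arrays each, went through the same treatments and served here for the spread between arrays and as values beside those of the mutant. Both treated groups were older than their untreated groups by the 3 weeks of cold, so that cold and age cannot be told apart. The gene mutated in sid2-1 has no named probe set here, and the genotype was therefore not checked against it.

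Arabidopsis acclimates to cold through CBF transcription factors, which switch on COR genes encoding dehydrins and other protectants of membranes and proteins, while sugars build up in the vacuole and growth slows. Salicylic acid is a defence hormone made mainly from isochorismate, and in wild-type plants it accumulates during long growth in the cold.

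Among 22746 probe sets, 1428 were called in the cold response of sid2-1 at an adjusted p under 0.05 in limma's test, which is 6.28% of those tested. Of these, 728 were higher (3.2%) and 700 lower (3.08%) at 4 °C than at 22 °C. On all 1428 the 3 values at 4 °C lay apart from the 3 values at 22 °C, against 21.9% of all probe sets tested. The calls rest on these same values, so the separation is no independent evidence for them. At least a 2-fold change was found for 471 higher probe sets (2.07%) and 494 lower ones (2.17%). Changes of 4 log2 units or more numbered 20 up and 10 down. The median change was 1.18 log2 units for the higher and -1.29 for the lower probe sets. A gene is annotated here for 731 of the called probe sets, 385 higher and 346 lower, and the other 697 stay unnamed. Of the called probe sets, 233 had a mean log2 signal of 4 or less in their lower group, where the size of a change depends on the background correction.

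**Figure D1:**
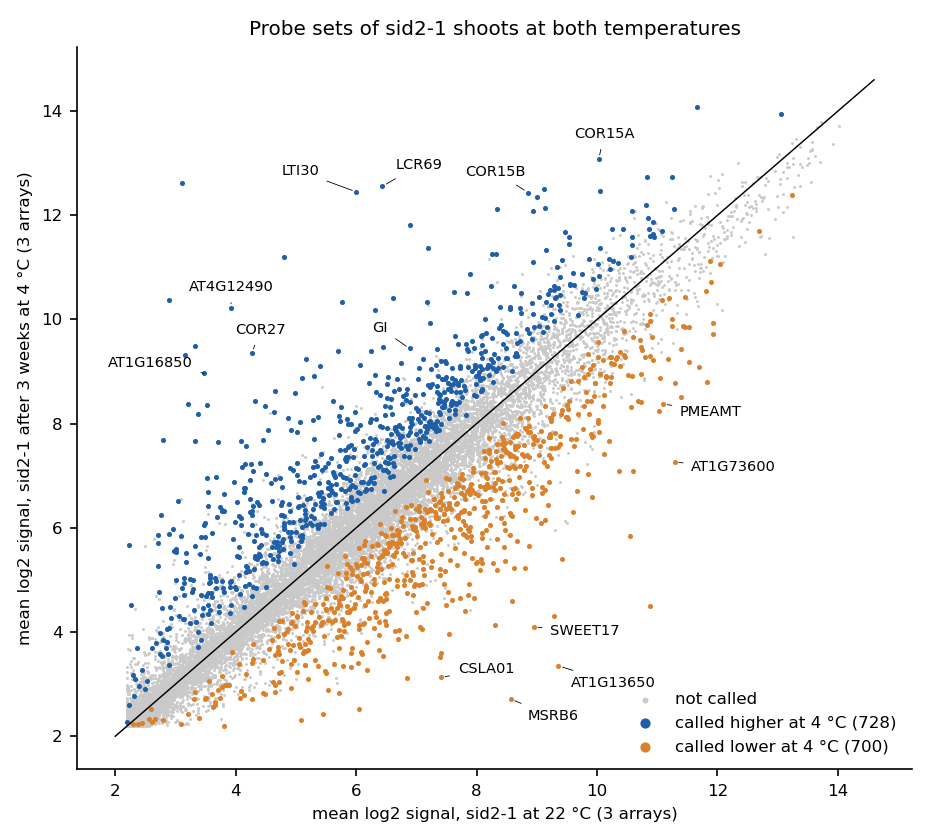
Mean log2 GCRMA signal of each probe set in sid2-1 at 4 °C (vertical axis) against sid2-1 at 22 °C (horizontal axis), each the mean of 3 arrays. Coloured points are the 728 probe sets called higher and the 700 called lower at 4 °C, and named points include LTI30, LCR69, SWEET17 and MSRB6.

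The 6 sid2-1 arrays had nearly equal distributions. Their median log2 signals were 4.39 to 4.47, and between 13.9% and 15.9% of the values of an array sat at the lowest value of 2.2. Across probe sets, replicate arrays correlated at 0.978 to 0.983 in sid2-1 at 4 °C and at 0.986 to 0.989 in sid2-1 at 22 °C, and arrays of different temperatures at 0.953 to 0.964. The number of arrays limits the precision. Counts depended on the arrays in the fit: the 6 sid2-1 arrays alone gave 376 called probe sets, and 318 of these were among the 1428. That fit has fewer arrays and takes the spread from the mutant alone, and the cause of the lower count was not tested. In whole shoots, fewer cells of a type and less RNA per cell cannot be told apart.

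The CBF and COR cold regulon held the largest share of called rises among the lists with at least 4 measured genes. Of its 33 listed loci only 9 were measured, and no CBF gene is among them, so the values cover a part of the list. Of 9 measured members, 7 rose and none fell, against 3.2% of all probe sets called higher, and the median change was 2.55 log2 units. LTI30 (AT3G50970), a dehydrin, had log2 signals of 11.61, 12.69 and 13.06 in sid2-1 at 4 °C, against 5.93, 5.51 and 6.56 in sid2-1 at 22 °C. Every cold array lay far above every warm one, and the change was 6.45 ± 0.45 log2 units (SE, n = 3 against 3, adjusted p = 0.000458). COR27 (AT5G42900), a cold-induced gene tied to the clock, had 8.39, 9.96 and 9.72 at 4 °C, against 4.25, 4.02 and 4.54 at 22 °C. The mutant plants thus held COR27 at a low warm level on all 3 warm arrays and high on all 3 cold arrays (5.09 ± 0.41, adjusted p = 0.00059). COR15B (AT2G42530), a chloroplast protectant, had 12.11, 12.47 and 12.73 at 4 °C, against 9.35, 8.45 and 8.76 at 22 °C (3.58 ± 0.42, adjusted p = 0.00243).

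COR15A (AT2G42540), the close relative of COR15B, had 12.74, 13.13 and 13.36 at 4 °C, against 10.02, 8.84 and 11.22 at 22 °C. Its groups did not overlap, but its warm arrays spread over more than 2 log2 units (3.05 ± 0.66, SE, adjusted p = 0.0314). The dehydrin COR47 (AT1G20440) rose by 2.19 ± 0.47 (adjusted p = 0.0294) and AT4G33980 by 2.4 ± 0.45 (adjusted p = 0.018). These 3 calls were the fragile ones of the regulon. COR15A lost its call when any 1 array was left out (adjusted p 0.0529 to 0.0897) except for sid2-1 replicate 3 at 22 °C, wild-type replicate 2 and 3 at 4 °C and wild-type replicate 1, 2 and 3 at 22 °C, COR47 when any 1 array was left out (adjusted p 0.0514 to 0.0863) except for sid2-1 replicate 1 at 4 °C, wild-type replicate 2 and 3 at 4 °C and wild-type replicate 1, 2 and 3 at 22 °C, and AT4G33980 without sid2-1 replicate 1, 2 or 3 at 22 °C (adjusted p 0.05 to 0.0569). In the fit of the 6 sid2-1 arrays alone, COR15A stood at adjusted p = 0.123, COR47 at 0.102 and AT4G33980 at 0.121. With the replicate numbers as blocks within genotype, COR15A stood at 0.053, COR47 at 0.0607 and AT4G33980 at 0.0751. LTI30, COR27, COR15B and GI kept their calls under all 22 alternative settings.

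GI (AT1G22770), a clock-associated gene that promotes flowering and is induced by cold, was the seventh member that rose. It had 9.3, 9.16 and 9.87 in sid2-1 at 4 °C, against 7.16, 7.02 and 6.5 in sid2-1 at 22 °C, a change of 2.55 ± 0.24 (SE, adjusted p = 0.00099). The groups lay 2 log2 units apart. The remaining 2 members of the regulon were not called, namely the zinc finger gene STZ (AT1G27730) with a change of 0.02 ± 1.0 and tny, an AP2-type transcription factor gene near the lowest signals, with -0.08 ± 0.08. STZ was uneven at 22 °C, where its 3 arrays read 3.08, 6.34 and 4.07, against 4.08, 4.23 and 5.23 at 4 °C. Of the 4 measured clock genes GI was the single one called. The replicate 3 array read highest of the cold group for 8 of the 9 members of the regulon, LTI30, COR15A, COR15B and COR47 among them.

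Among the 13 measured dehydration and LEA genes, which encode hydrophilic protectants, 4 rose and none fell, against 3.2% of all probe sets called higher, and their median change was 0.13. AT1G16850 had 8.29, 9.63 and 8.99 at 4 °C, against 3.3, 2.93 and 4.18 at 22 °C, and rose by 5.5 ± 0.54 log2 units (SE, adjusted p = 0.00126). It left a low signal at 22 °C for a middling one at 4 °C on every array, and its fold depends on the background correction. AT4G30650 had 11.17, 11.34 and 11.25 at 4 °C, against 7.83, 8.29 and 8.63 at 22 °C (3.0 ± 0.4, adjusted p = 0.00416). Smaller rises were those of AT3G53990 (1.85 ± 0.36, adjusted p = 0.0209) and DI21 (AT4G15910), a drought-induced gene (2.29 ± 0.54, adjusted p = 0.0435). AT3G53990 lost its call without sid2-1 replicate 2 or 3 at 4 °C or sid2-1 replicate 2 or 3 at 22 °C (adjusted p 0.0537 to 0.0666) and DI21 when any 1 array was left out (adjusted p 0.0511 to 0.125) except for sid2-1 replicate 1 at 4 °C and wild-type replicate 2 at 4 °C. In the fit of the 6 arrays alone AT3G53990 stood at adjusted p = 0.138 and DI21 at 0.203, and with blocks within genotype at 0.116 and 0.148. Of the 9 members not called, LEA4-5 had a change of 0.71 ± 0.5 and AT1G54410, strongly expressed in both groups, 0.71 ± 0.21 (adjusted p = 0.0922). For 8 of the 13 members both groups lay at or under a mean of 4.

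LCR69 (AT2G02100), a defensin, had the largest rise outside the regulon among genes annotated here with a mean above 4 in both groups. It had 12.32, 12.92 and 12.45 in sid2-1 at 4 °C, against 5.93, 7.27 and 6.11 in sid2-1 at 22 °C, a change of 6.13 ± 0.36 log2 units (SE, n = 3 against 3, adjusted p = 0.000207). All 3 cold arrays were high and within 1 log2 unit of each other. A second defensin-like gene, LCR68 (AT2G02130), rose by 0.86 ± 0.21 (adjusted p = 0.0457). LCR69 and LCR68 were the members called among 13 defensins and defensin-like genes, and none fell. The call of LCR68 was lost when any 1 array was left out (adjusted p 0.0576 to 0.13) except for wild-type replicate 2 and 3 at 4 °C, with the 6 arrays alone (adjusted p = 0.0888) and with blocks within genotype (0.0872).

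**Figure D2:**
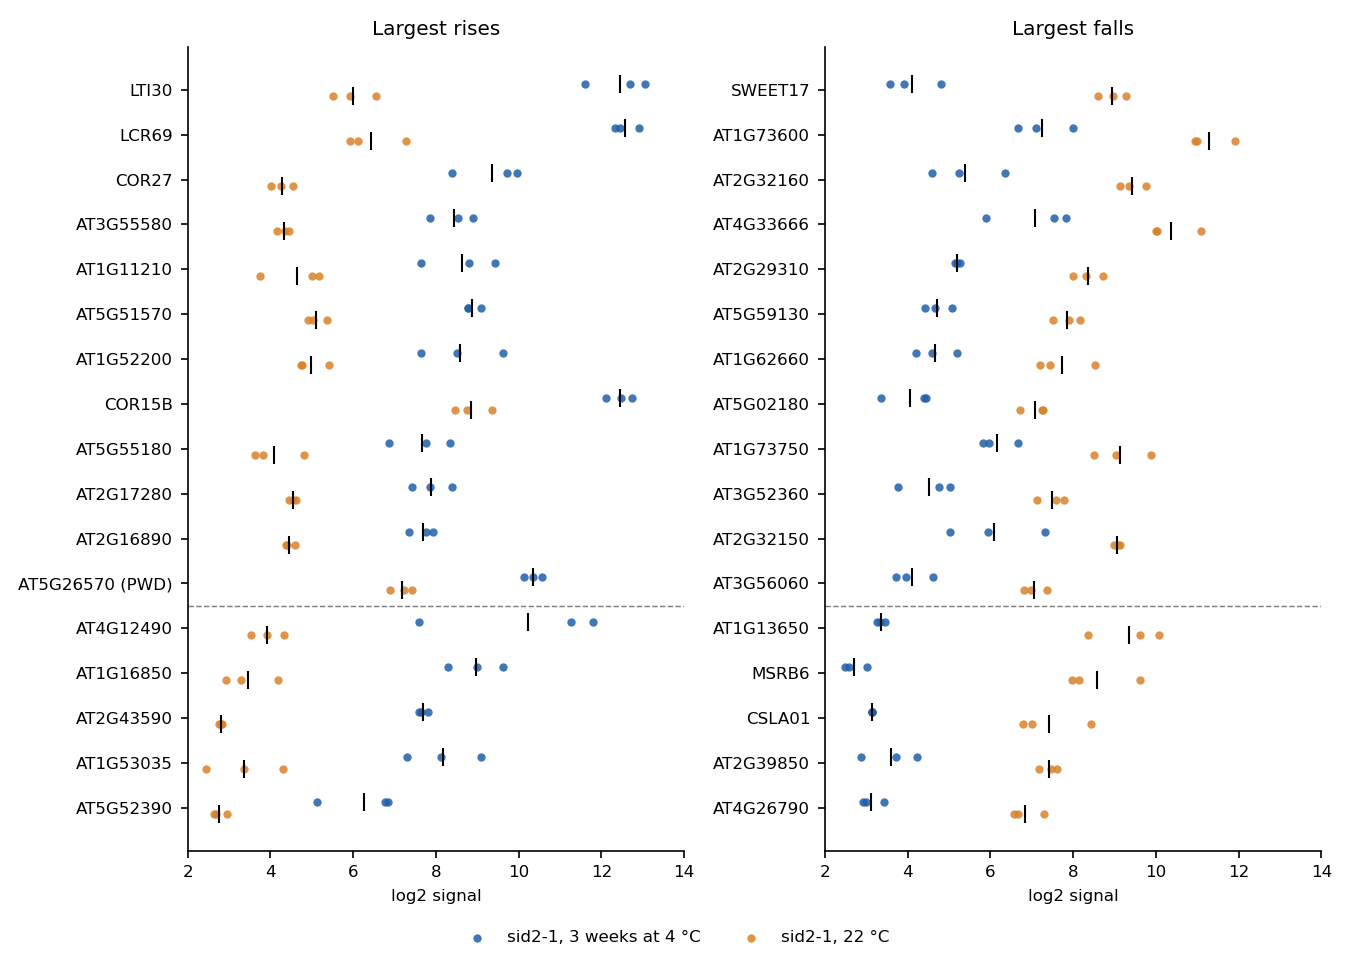
Log2 GCRMA signals on the 3 sid2-1 arrays at 4 °C (upper points of each gene) and the 3 sid2-1 arrays at 22 °C (lower points) for the genes with the largest called rises and falls. Dashed lines set off the 5 rises and 5 falls in which one group had a mean of 4 or less, among them AT4G12490 and MSRB6. The genes were chosen among those whose groups do not overlap.

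Among genes annotated here whose lower group had a mean above 4, LTI30, LCR69 and COR27 were followed by AT3G55580, AT1G11210, AT5G51570, AT1G52200, COR15B, AT5G55180, AT2G17280, AT2G16890 and AT5G26570. AT3G55580 had 7.85, 8.89 and 8.54 at 4 °C, against 4.45, 4.17 and 4.35 at 22 °C (4.1 ± 0.33, SE, adjusted p = 0.00059). AT5G51570 had 8.78, 8.78 and 9.09 at 4 °C, against 5.02, 4.92 and 5.36 at 22 °C, and its adjusted p of 5.74e-05 came with a small spread within both groups (3.78 ± 0.17). The other loci rose by 3.98 ± 0.54 (AT1G11210), 3.61 ± 0.62 (AT1G52200), 3.58 ± 0.56 (AT5G55180), 3.34 ± 0.32 (AT2G17280) and 3.23 ± 0.33 (AT2G16890). The reference table gives no symbol for them. From a low signal at 22 °C, AT1G53035 rose by 4.81 ± 0.57 and AT5G52390 by 3.49 ± 0.55. In the fit of the 6 arrays alone 5 of these loci lost the call, namely AT1G11210 (adjusted p = 0.0731), AT1G52200 (0.0731), AT5G55180 (0.0646), AT1G53035 (0.0619) and AT5G52390 (0.0676), and AT5G55180 also with blocks within genotype (0.0559). Among probe sets without a gene here, 264511_at had means of 11.2 at 4 °C and 4.80 at 22 °C and 263548_at had means of 11.8 at 4 °C and 6.90 at 22 °C.

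Sugar and starch genes changed in both directions. Of 19 measured sugar transport genes 3 rose and 2 fell, beside 3.2% higher and 3.08% lower of all probe sets, with a median change of 0.00. SWEET17 (AT4G15920), a fructose transporter of the vacuolar membrane, had 3.92, 4.8 and 3.57 in sid2-1 at 4 °C, against 8.97, 8.61 and 9.27 in sid2-1 at 22 °C. It was low on every cold array and strong on every warm one, and fell by 4.85 ± 0.48 log2 units (SE, n = 3 against 3, adjusted p = 0.00129). SWEET16 (AT3G16690), a related transporter of the vacuolar membrane, had 3.1, 2.67 and 3.16 at 4 °C, against 4.93, 4.87 and 4.17 at 22 °C, a change of -1.68 ± 0.35 that ends near the background (adjusted p = 0.0266). The tonoplast sugar importer TMT1 (AT1G20840) moved the other way, with 8.48, 8.26 and 8.85 at 4 °C, against 7.18, 7.07 and 6.09 at 22 °C (1.75 ± 0.3, adjusted p = 0.0121). TMT2 (AT4G35300) had 8.12, 9.45 and 8.42 at 4 °C, against 7.09, 6.68 and 6.77 at 22 °C (1.82 ± 0.38, adjusted p = 0.0281). Neither importer had overlapping groups. The hexose transporter SWEET4 (AT3G28007) rose by 1.68 ± 0.4 (adjusted p = 0.0448).

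Apart from SWEET17, these transporter calls depended on the arrays used. TMT1 kept its call without any 1 array but stood at adjusted p = 0.111 in the 6 arrays alone and at 0.0786 with blocks within genotype. TMT2 lost its call without sid2-1 replicate 2 at 4 °C or sid2-1 replicate 1, 2 or 3 at 22 °C (adjusted p 0.056 to 0.0857), SWEET16 without sid2-1 replicate 1 or 2 at 4 °C or sid2-1 replicate 1 or 2 at 22 °C (adjusted p 0.0624 to 0.091) and SWEET4 when any 1 array was left out (adjusted p 0.0546 to 0.126) except for sid2-1 replicate 2 at 4 °C and wild-type replicate 2 at 4 °C. In the 6 arrays alone TMT2, SWEET16 and SWEET4 had adjusted p values of 0.122, 0.0731 and 0.198, and with blocks within genotype of 0.0803, 0.0872 and 0.0753. The third tonoplast importer TMT3 had sid2-1 means of 2.23 at 4 °C and 2.2 at 22 °C, next to the lowest signal. Its change of 0.03 ± 0.06 therefore does not show whether it responds. Also not called were SWEET1 (0.57 ± 0.25, adjusted p = 0.241), SWEET2 (-0.83 ± 0.21, 0.0562), SWEET13 (1.19 ± 0.34, 0.0828) and the sugar-porter genes SFP1 (-0.91 ± 0.26, 0.0763) and SFP2 (-1.81 ± 0.46, 0.0564). SWEET2 and SFP2 came closest of these to the threshold.

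Of 8 measured starch and sucrose genes 1 rose and 1 fell. AT5G26570, the phosphoglucan water dikinase PWD, which phosphorylates starch glucans during starch breakdown, had 10.34, 10.57 and 10.12 at 4 °C, against 7.22, 7.42 and 6.89 at 22 °C. The 3 cold arrays lay more than 2 log2 units above the warm ones, and the change was 3.17 ± 0.22 (SE, adjusted p = 0.000458), called under all 22 alternatives. AT1G62660, on the list as a sucrose gene, had 4.2, 4.59 and 5.19 at 4 °C, against 8.54, 7.2 and 7.44 at 22 °C, and fell by 3.07 ± 0.48 (adjusted p = 0.00926). In the 6 arrays alone AT1G62660 had an adjusted p of 0.0676 and with blocks within genotype of 0.0636. Values without a call were -1.0 ± 0.32 for the starch branching enzyme SBE2.2 (adjusted p = 0.112), 0.7 ± 0.17 for AT2G35840 (adjusted p = 0.0501, at the threshold), 0.85 ± 0.68 and 0.59 ± 0.62 for the large subunits APL3 and APL4 of ADP-glucose pyrophosphorylase, 0.28 ± 0.44 for the plastid glucanotransferase DPE1 and 0.58 ± 0.43 for the sucrose-phosphate synthase gene ATSPS4F.

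Of 41 listed loci of membrane lipid metabolism only 2 were measured, so the values do not stand for the list. Both measured genes fell, beside 3.08% of all probe sets called lower. Both encode methyltransferases on the route from phosphoethanolamine to phosphocholine, the head group of phosphatidylcholine. AT1G73600 had 6.66, 8.0 and 7.11 in sid2-1 at 4 °C, against 10.94, 11.0 and 11.92 in sid2-1 at 22 °C. All 3 cold arrays were lower by more than 2 log2 units, a change of -4.03 ± 0.46 (SE, n = 3 against 3, adjusted p = 0.00229). PMEAMT (AT1G48600) had 8.28, 8.4 and 8.45 at 4 °C, against 11.1, 10.86 and 11.34 at 22 °C, and its 3 cold values lay within 0.2 of each other (-2.72 ± 0.29, adjusted p = 0.00178). Both kept their calls under all 22 alternatives. CCT2 (AT4G15130), a phosphocholine cytidyltransferase of the step after them, is outside the list and was chosen after its values were seen. It had 8.0, 8.49 and 8.97 at 4 °C, against 5.9, 6.55 and 7.09 at 22 °C, and rose by 1.97 ± 0.4 (adjusted p = 0.0236), a call lost without sid2-1 replicate 2 or 3 at 4 °C or sid2-1 replicate 1 or 2 at 22 °C (adjusted p 0.0627 to 0.0735) and in the 6 arrays alone (adjusted p = 0.114).

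The largest falls among genes annotated here with a mean above 4 in the lower group were those of SWEET17, AT1G73600 and AT2G32160. AT2G32160 had 5.24, 4.6 and 6.36 at 4 °C, against 9.14, 9.76 and 9.36 at 22 °C (-4.02 ± 0.43, SE, adjusted p = 0.00167), and its neighbour in locus number, AT2G32150, had 5.02, 5.94 and 7.33 at 4 °C, against 9.09, 8.99 and 9.13 at 22 °C (-2.97 ± 0.52, adjusted p = 0.0137). Both were lower on every cold array. AT2G29310 fell by 3.15 ± 0.28, AT5G59130 by 3.14 ± 0.33, AT5G02180 by 3.02 ± 0.31 and AT3G56060 by 2.96 ± 0.29, with adjusted p values of 0.000922, 0.00167, 0.00153 and 0.00123, and these 4 held under all 22 alternatives. AT4G33666 (-3.29 ± 0.67), AT3G52360 (-2.98 ± 0.44) and AT1G73750 (-2.98 ± 0.38) complete the set. From the 6 arrays alone the calls of AT2G32160 (adjusted p = 0.0508), AT2G32150 (0.116), AT4G33666 (0.103), AT3G52360 (0.0545) and AT1G73750 (0.0663) ended, and AT4G33666 also lost its call without sid2-1 replicate 2 at 4 °C or sid2-1 replicate 1, 2 or 3 at 22 °C (adjusted p 0.0533 to 0.0833). Among probe sets without a gene here, 249774_at had means of 4.50 at 4 °C and 10.9 at 22 °C, and 245399_at had means of 5.84 at 4 °C and 10.5 at 22 °C.

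A further 5 genes fell to a low signal, which makes their folds depend on the background correction. MSRB6 (AT4G04840), a reductase that repairs oxidized methionine, had 3.03, 2.59 and 2.5 at 4 °C, against 7.97, 8.14 and 9.61 at 22 °C (-5.87 ± 0.65, SE, adjusted p = 0.00189). AT1G13650 had 3.46, 3.26 and 3.33 at 4 °C, against 10.08, 9.62 and 8.37 at 22 °C (-6.01 ± 0.65, adjusted p = 0.00178). Both were strong at 22 °C and close to the lowest signals on all 3 cold arrays. CSLA01 (AT4G16590), a cellulose synthase-like gene, read 3.13 on each cold array, against 8.44, 7.01 and 6.78 at 22 °C (-4.28 ± 0.47, adjusted p = 0.00182). AT2G39850 (-3.81 ± 0.4) and AT4G26790 (-3.73 ± 0.33) were the remaining ones. MSRB6 was the single member called among 5 methionine sulfoxide reductases and among 9 antioxidant and redox genes. All 5 kept their calls under all 22 alternatives.

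Genes of protein turnover were called in both directions. Of 29 serine carboxypeptidase-like genes, whose products sit in the vacuole or secretory pathway, 4 rose and none fell, against 3.2% of all probe sets called higher, with a family median of 0.00. SCPL49 (AT3G10410) had 9.18, 9.65 and 9.59 in sid2-1 at 4 °C, against 6.41, 6.29 and 6.66 in sid2-1 at 22 °C (3.02 ± 0.18, SE, adjusted p = 0.00021). The gene scpl35 had 8.98, 9.81 and 8.58 at 4 °C, against 6.28, 6.4 and 5.51 at 22 °C (3.06 ± 0.37, adjusted p = 0.00276). Both were higher on every cold array by at least 2 log2 units. Smaller rises were those of scpl29 (1.04 ± 0.15, adjusted p = 0.00594) and scpl42 (0.79 ± 0.15, adjusted p = 0.0197). With only the 6 arrays of the mutant scpl35 had an adjusted p of 0.0589 and scpl42 of 0.1, scpl42 also lost its call without sid2-1 replicate 1 at 4 °C (adjusted p = 0.0622), and with blocks within genotype scpl29 stood at 0.0626.

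Other turnover genes are given by family or were chosen after their values were seen. UBP22, of 12 ubiquitin-specific proteases, rose by 0.96 ± 0.12 (SE, adjusted p = 0.00289), and VPS9B, of 10 vacuolar sorting genes, by 1.44 ± 0.23 (adjusted p = 0.00975). The autophagy gene ATG8H fell by 1.12 ± 0.26 (adjusted p = 0.0402) among 10 of its kind, and PUB25 and PUB26, U-box ubiquitin ligases, by 0.87 ± 0.21 (adjusted p = 0.0499) and 0.78 ± 0.15 (adjusted p = 0.0199) among 9. Outside the lists, the protease inhibitor gene SERPIN1 (AT1G47710) rose by 1.67 ± 0.23 (adjusted p = 0.00506). ATG8H lost its call when any 1 array was left out (adjusted p 0.0502 to 0.111) except for sid2-1 replicate 3 at 4 °C and wild-type replicate 1 at 22 °C, PUB25 when any 1 array was left out (adjusted p 0.058 to 0.138) except for wild-type replicate 3 at 4 °C and PUB26 without sid2-1 replicate 2 or 3 at 4 °C or sid2-1 replicate 2 at 22 °C (adjusted p 0.0522 to 0.0578). On the 6 arrays alone UBP22 stood at adjusted p = 0.0663, VPS9B at 0.0628, ATG8H at 0.188, PUB25 at 0.156 and PUB26 at 0.0578. With blocks within genotype ATG8H stood at 0.0503 and SERPIN1 at 0.0555.

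In 3 families of respiratory and aldehyde-oxidizing enzymes 1 or 2 members each rose, beside 3.2% of all probe sets called higher. Of 8 tricarboxylic acid cycle enzyme genes, SDH2-1 (AT3G27380), an iron-sulfur subunit of succinate dehydrogenase, rose by 0.93 ± 0.16 log2 units (SE, adjusted p = 0.0128) on 1 of its 2 probe sets, while the other stayed near the lowest signal (0.08, adjusted p = 0.734). Of 5 alternative NAD(P)H dehydrogenases, which feed the respiratory chain without pumping protons, NDB1 (AT4G28220) rose by 0.95 ± 0.19 (adjusted p = 0.0218). Of 8 aldehyde dehydrogenases ALDH6B2 (AT2G14170), of valine breakdown, rose by 1.17 ± 0.15 (adjusted p = 0.00351) and the betaine aldehyde dehydrogenase gene ALDH10A9 (AT3G48170) by 0.96 ± 0.13 (adjusted p = 0.0049). None of the measured members of these 3 families fell. With the 6 arrays alone SDH2-1 (adjusted p = 0.0894), NDB1 (0.12), ALDH6B2 (0.0754) and ALDH10A9 (0.0731) lost the call, and NDB1 also without sid2-1 replicate 1 or 2 at 4 °C or sid2-1 replicate 1 at 22 °C (adjusted p 0.0608 to 0.0665) and with blocks within genotype (0.0532).

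Chosen after its values were seen, THIC (AT2G29630), which makes the pyrimidine part of thiamine, had 11.38, 11.87 and 11.5 in sid2-1 at 4 °C, against 9.5, 9.16 and 9.95 in sid2-1 at 22 °C. It was strong in both groups and higher on every cold array (2.05 ± 0.27, SE, adjusted p = 0.0038). Pyruvate decarboxylase PDC2 (AT5G54960), an enzyme that needs thiamine diphosphate, rose by 1.67 ± 0.29 (adjusted p = 0.0144). CHL (AT3G47860), the chloroplast lipocalin that protects plastid membrane lipids, had 10.41, 10.31 and 10.85 at 4 °C, against 7.64, 7.65 and 7.6 at 22 °C (2.89 ± 0.28, adjusted p = 0.0012). The cold arrays of CHL lay more than 2 log2 units above its warm arrays. THIC and CHL held under all 22 alternatives. PDC2 stood at adjusted p = 0.105 in the 6 arrays alone and at 0.0612 with blocks within genotype.

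Genes of nuclear RNA polymerase subunits were among the other named rises under all 22 alternatives and were likewise picked after their values were seen. NRPB9B (AT4G16265) rose by 1.72 ± 0.25 (SE, adjusted p = 0.00674) and NRPE7 (AT4G14660) by 1.0 ± 0.12 (adjusted p = 0.00254). The tRNA 3′-processing gene TRZ1 (AT1G74700) rose by 0.97 ± 0.1 (adjusted p = 0.00132), the S-domain receptor kinase gene SD1-29 (AT1G61380) by 2.32 ± 0.32 (adjusted p = 0.0047) and TUB9, 1 of 7 tubulin genes, by 1.28 ± 0.13 (adjusted p = 0.00134). The histone H2B gene HTB2 was the single member called of 7 histone genes, with 7.75, 7.63 and 7.16 at 4 °C, against 6.27, 5.66 and 5.97 at 22 °C (1.55 ± 0.28, adjusted p = 0.0148). Its groups did not overlap, and in the 6 arrays alone its adjusted p was 0.0673.

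Genes of anthocyanin and flavonol synthesis were uneven between the cold mutant arrays rather than shifted together. All 8 measured members had lower mean values at 4 °C (median change -0.99), but HCT was the single one called. DFR (AT5G42800), which makes the anthocyanin precursor, had 8.05, 11.26 and 3.4 in sid2-1 at 4 °C, against 9.47, 9.21 and 10.98 in sid2-1 at 22 °C. The glucosyltransferase gene UF3GT (AT5G54060) had 6.69, 10.45 and 3.26 at 4 °C, against 8.71, 8.17 and 9.31 at 22 °C. The replicate 2 array was the high one of the cold group for 7 of the 8 members, with a median signal of 9.64 over them, against 7.70 on replicate 1 and 4.11 on replicate 3. The cold group thus overlapped the warm group for DFR (-2.32 ± 2.15, SE, adjusted p = 0.625) and UF3GT (-1.93 ± 1.81, adjusted p = 0.633). In wild type at 4 °C a different number led, with a median over the 8 genes of 7.92 on replicate 1, 5.48 on replicate 2 and 4.62 on replicate 3. HCT (AT5G48930), a hydroxycinnamoyl transferase of lignin synthesis, fell by 1.38 ± 0.28 (adjusted p = 0.0242), a call lost without sid2-1 replicate 1, 2 or 3 at 4 °C or sid2-1 replicate 1 or 2 at 22 °C (adjusted p 0.0548 to 0.074), in the 6 arrays alone (adjusted p = 0.114) and with blocks within genotype (0.0912).

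Of 6 measured glucosinolate genes, 1 fell and the median change was -0.70. UGT74B1 (AT1G24100), which glucosylates the thiohydroximate precursor, had 7.24, 8.23 and 7.16 at 4 °C, against 9.18, 9.39 and 9.49 at 22 °C (-1.81 ± 0.35, SE, adjusted p = 0.0205). Its 3 cold arrays all lay below the warm ones, and it was also the single member called of 47 UDP-glycosyltransferases. BCAT4, of methionine chain elongation, had a change of -1.51 ± 0.54 without a call (adjusted p = 0.155), AT2G31790 of -1.11 ± 0.31 (adjusted p = 0.0722), and the transporters GTR1 and GTR2 of 0.06 ± 0.3 and -0.28 ± 0.28. In wild type, where 6.19% of all probe sets were called lower, 4 of the 6 were, GTR1 among them (-1.16 ± 0.3), and no difference between the responses was called in the list. Outside the list and chosen after its values were seen, the ATP sulfurylase gene APS3 (AT4G14680), at the entry of sulfate assimilation, fell by 1.87 ± 0.35 (adjusted p = 0.0173) and the sulfite reductase gene SIR (AT5G04590) by 0.52 ± 0.08 (adjusted p = 0.00655). SIR kept its call under all 22 alternatives. UGT74B1 lost its call without sid2-1 replicate 1 or 3 at 4 °C or sid2-1 replicate 1, 2 or 3 at 22 °C (adjusted p 0.0535 to 0.0646) and APS3 without sid2-1 replicate 1 at 4 °C or sid2-1 replicate 1 or 2 at 22 °C (adjusted p 0.0523 to 0.0572). From the 6 arrays alone UGT74B1 and APS3 stood at 0.0907 and 0.0716, and with blocks within genotype at 0.099 and 0.0802.

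Among cell wall and growth genes, 2 of 18 expansins, 1 of 15 cellulases and none of 9 xyloglucan endotransglucosylase/hydrolases were called, beside 6.28% of all probe sets. An unadjusted p under 0.05 was reached by 7 of the expansins and 3 of the cellulases, beside 4677 of all 22746 probe sets. Both sid2-1 groups had a mean of 4 or less for 8 of the expansins, 12 of the cellulases and 7 of the xyloglucan endotransglucosylase/hydrolases. EXPA8 (AT2G40610), a wall-loosening expansin, had 4.92, 5.48 and 5.85 in sid2-1 at 4 °C, against 7.27, 9.07 and 7.42 in sid2-1 at 22 °C (-2.5 ± 0.57, SE, adjusted p = 0.0379). The expansin-like gene EXLA2 had 4.64, 4.68 and 3.97 at 4 °C, against 3.55, 3.63 and 3.55 at 22 °C (0.85 ± 0.21, adjusted p = 0.0489). These were the 2 members called of 18 expansins, and the warm arrays of EXLA2 lay near the background. GH9C2 (AT1G64390), of 15 cellulases of glycosyl hydrolase family 9, had 6.23, 6.01 and 5.09 at 4 °C, against 8.53, 8.62 and 7.85 at 22 °C (-2.56 ± 0.41, adjusted p = 0.00994). None of 9 xyloglucan endotransglucosylase/hydrolases was called and none had an unadjusted p under 0.05, and the 2 members with the smallest p, XTH16 and XTH33, stood at 0.9 ± 0.4 and 0.69 ± 0.44. EXPA8 lost its call when any 1 array was left out (adjusted p 0.054 to 0.109) except for wild-type replicate 1 and 3 at 4 °C and wild-type replicate 1 at 22 °C and EXLA2 when any 1 array was left out (adjusted p 0.0616 to 0.137) except for sid2-1 replicate 3 at 4 °C and wild-type replicate 2 at 22 °C. With only the 6 arrays of the mutant the adjusted p was 0.145 for EXPA8, 0.162 for EXLA2 and 0.0691 for GH9C2, and with blocks within genotype 0.117 for EXPA8 and 0.101 for EXLA2.

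Growth regulators outside the lists, chosen after their values were seen, included TRY (AT5G53200), which keeps epidermal cells from becoming trichomes, with 3.71, 3.56 and 3.67 at 4 °C, against 6.6, 5.6 and 6.96 at 22 °C. It was low on every cold array (-2.74 ± 0.35, SE, adjusted p = 0.00354). The auxin-responsive homeobox gene HAT2 (AT5G47370) fell by 2.45 ± 0.31 (adjusted p = 0.00338). None of 16 auxin response and synthesis genes was called, and 2 of them had an unadjusted p under 0.05. For 13 of the 16 both sid2-1 groups had a mean of 4 or less, so the family shows little of an auxin response. On the 6 arrays alone TRY (adjusted p = 0.0589) and HAT2 (0.0601) lost the call.

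Photosynthesis genes of the lists gave 2 calls, both lower, beside 3.08% of all probe sets called lower. None of 5 nuclear leaf mesophyll markers was called. Of these, 4 had an unadjusted p under 0.05, beside 4677 of all 22746 probe sets, and all 5 had lower mean values at 4 °C (median -0.55). Rubisco activase RCA had 13.42, 13.17 and 13.51 in sid2-1 at 4 °C, against 13.78, 13.99 and 13.97 in sid2-1 at 22 °C. Its groups did not overlap, but the adjusted p of 0.0552 missed the threshold (-0.55 ± 0.14, SE), as did those of the photorespiratory gene HPR (-1.12 ± 0.32, adjusted p = 0.0841) and of the antenna gene LHCB4.2 (-0.82 ± 0.23, adjusted p = 0.0826). PGRL1B (AT4G11960), of cyclic electron flow, had 5.69, 6.41 and 6.49 at 4 °C, against 8.31, 8.31 and 8.61 at 22 °C (-2.21 ± 0.23, adjusted p = 0.00153). It held under all 22 alternatives. With CRR41, an assembly factor (-1.21 ± 0.29, adjusted p = 0.0424), it made 2 falls among 19 genes taken for the NDH and PGRL routes of cyclic electron flow, whose median change was -0.34. PGRL1B belongs to the PGR5 route and not to the NDH complex, and of the 18 NDH genes and assembly factors CRR41 alone fell, with a median of -0.28.

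LHCB4.3 (AT2G40100), a minor antenna gene outside the lists and chosen after its values were seen, had 7.11, 6.32 and 6.94 at 4 °C, against 8.82, 9.3 and 9.13 at 22 °C (-2.29 ± 0.39, SE, adjusted p = 0.0125). TRXF2 (AT5G16400), a plastid thioredoxin that activates carbon fixation enzymes, fell by 1.4 ± 0.25 (adjusted p = 0.0154). Of 69 plastid-encoded probe sets 4 were called higher (5.8%, beside 3.2% of all probe sets) and none lower, and their median change was -0.10. The 4 were rbcL, the large subunit of Rubisco (1.91 ± 0.26, adjusted p = 0.00456), matK (0.95 ± 0.19, 0.0224), rpl22 (0.84 ± 0.17, 0.0239) and rps3 (0.72 ± 0.18, 0.0489), and rbcL alone of these held under all 22 alternatives. The call of CRR41 was lost when any 1 array was left out (adjusted p 0.0612 to 0.119) except for wild-type replicate 2 at 4 °C and wild-type replicate 1 and 2 at 22 °C, that of TRXF2 without sid2-1 replicate 1 at 22 °C (adjusted p = 0.0571), that of matK without sid2-1 replicate 2 at 4 °C or sid2-1 replicate 1, 2 or 3 at 22 °C (adjusted p 0.0568 to 0.0765), that of rpl22 without sid2-1 replicate 2 or 3 at 4 °C or sid2-1 replicate 1 or 3 at 22 °C (adjusted p 0.0642 to 0.0802) and that of rps3 when any 1 array was left out (adjusted p 0.0587 to 0.143) except for sid2-1 replicate 2 at 22 °C, wild-type replicate 3 at 4 °C and wild-type replicate 2 at 22 °C. With the 6 arrays alone CRR41 stood at adjusted p = 0.12, TRXF2 at 0.118, rpl22 at 0.164 and rps3 at 0.132. With blocks within genotype LHCB4.3 stood at 0.0562, TRXF2 at 0.0645, rpl22 at 0.053 and rps3 at 0.0624.

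**Figure D3:**
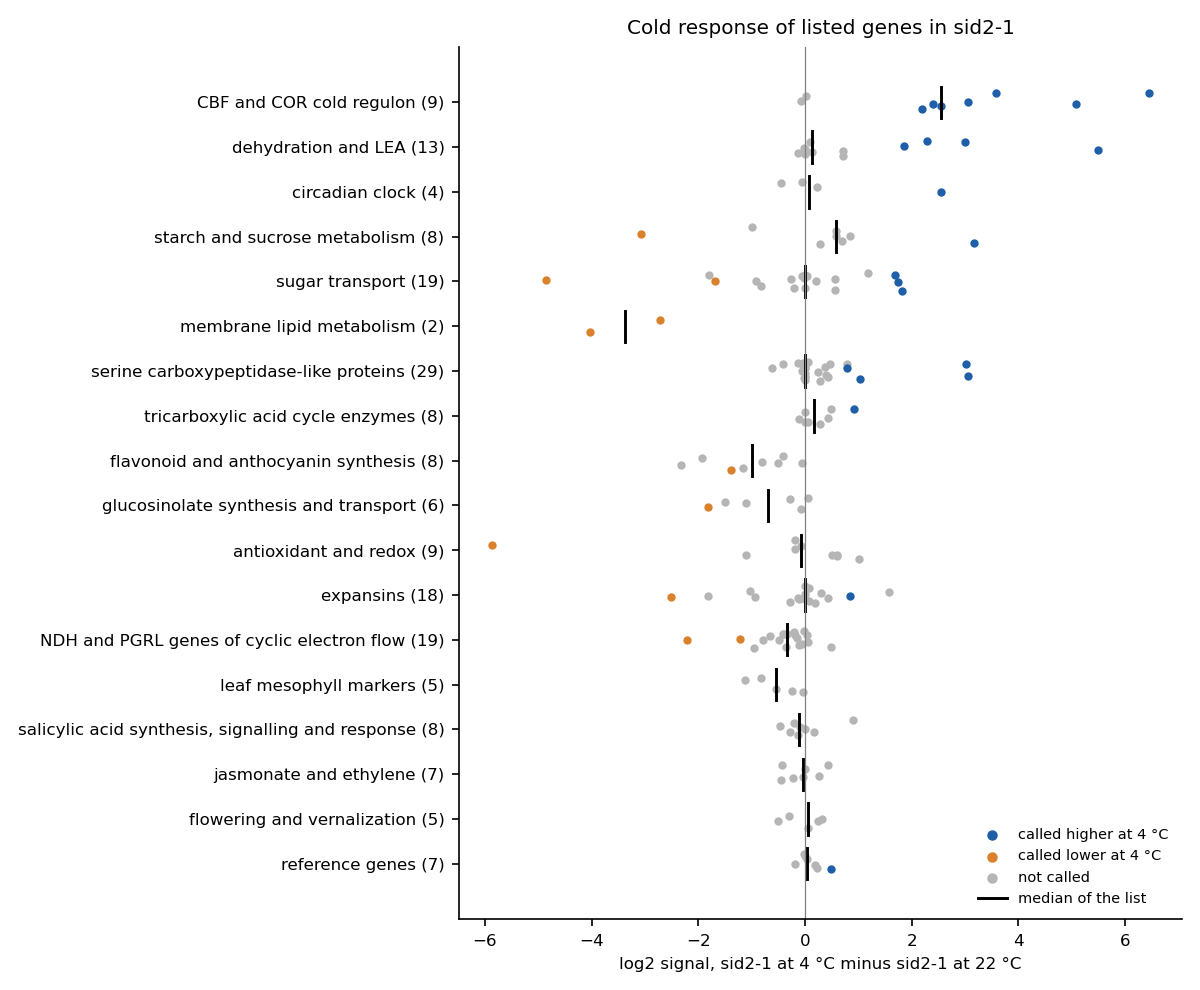
Log2 change of sid2-1 at 4 °C minus sid2-1 at 22 °C (horizontal axis) for each measured gene of 18 gene lists (rows). Blue points are genes called higher, orange points genes called lower and grey points genes not called, and the black bar is the list's median, which is 2.55 for the CBF and COR cold regulon, -0.11 for salicylic acid genes and -0.99 for flavonoid and anthocyanin genes.

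Of the 67 lists and families 29 held no called member in sid2-1. Among these were the 8 genes of salicylic acid synthesis, signalling and response, the 7 jasmonate and ethylene genes, the 5 flowering and vernalization genes, the 4 flower and pollen markers, and the families of 14 bZIP factors, 14 glutathione S-transferases, 6 WRKY factors, 8 subtilases and 7 calmodulin-like genes. An unadjusted p under 0.05 was reached by 1 salicylic acid gene, 1 jasmonate and ethylene gene, 1 flower marker, 3 bZIP factors, 1 glutathione S-transferase and 1 calmodulin-like gene, and by no flowering gene, WRKY factor or subtilase. Over all probe sets 4677 had an unadjusted p under 0.05. Both sid2-1 groups had a mean of 4 or less for 8 of the 14 bZIP factors and 9 of the 14 glutathione S-transferases. The same held for 4 of the 6 WRKY factors, 5 of the 8 subtilases, 5 of the 7 calmodulin-like genes and 3 of the 7 jasmonate and ethylene genes. For such genes a missing call does not show whether they respond. Of 7 root markers 1 rose, LPR2 (AT1G71040), a multicopper oxidase gene that was well expressed in shoots, with 9.17, 9.19 and 9.43 at 4 °C, against 8.39, 8.82 and 8.25 at 22 °C (0.78 ± 0.17, SE, adjusted p = 0.0322). For the other 6 root markers and for 3 of the 4 flower markers the mean was 4 or less in both groups. Of 7 reference genes 1 rose, AT4G34270, by 0.49 ± 0.1 (adjusted p = 0.0219), and the reference list had a median of 0.03. LPR2 lost its call when any 1 array was left out (adjusted p 0.0502 to 0.105) except for sid2-1 replicate 2 at 22 °C, wild-type replicate 2 and 3 at 4 °C and wild-type replicate 1 at 22 °C and AT4G34270 without sid2-1 replicate 2 or 3 at 4 °C or sid2-1 replicate 2 or 3 at 22 °C (adjusted p 0.0542 to 0.0709). From the 6 arrays alone LPR2 and AT4G34270 stood at 0.136 and 0.133, and with blocks within genotype at 0.111 and 0.117.

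The salicylic acid list is the one closest to the lesion of the mutant. Of its 44 loci 8 were measured, and for 6 of these 8 both sid2-1 groups had a mean of 4 or less. The list therefore shows little of the pathway in the mutant. Its 8 measured genes had a median change of -0.11 in sid2-1 and none was called. In wild type 4 of the 8 were called higher, where 6.81% of all probe sets were, with a median of 0.87. WRKY53 (AT4G23810), a transcription factor gene of defence and senescence, had 2.89, 4.91 and 3.47 in sid2-1 at 4 °C, against 3.8, 4.51 and 3.6 in sid2-1 at 22 °C. The groups overlapped (-0.21 ± 0.65, SE, adjusted p = 1). In wild type it had 6.89, 8.56 and 6.78 at 4 °C, against 3.76, 4.64 and 3.31 at 22 °C (3.51 ± 0.65, adjusted p = 0.0104), but the difference between the responses was not called (-3.72 ± 0.93, adjusted p = 0.548). SBT3.3, a subtilase gene of immune priming, read 2.31, 2.32 and 2.86 in sid2-1 at 4 °C, against 2.32, 2.32 and 2.32 in sid2-1 at 22 °C, next to the lowest signals throughout. In wild type it had 7.72, 9.4 and 6.23 at 4 °C, against 2.34, 2.32 and 2.31 at 22 °C, with a difference of -5.28 ± 0.9 that was not called (adjusted p = 0.165). SAG101 (AT5G14930), a partner of EDS1 in immune signalling, had 3.53, 3.99 and 4.19 in sid2-1 at 4 °C, against 2.64, 3.04 and 3.33 in sid2-1 at 22 °C, and its change of 0.9 ± 0.26 missed the threshold (adjusted p = 0.0803).

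A list of 15 defence genes was chosen on these samples for their response in wild type. Its counts are therefore no independent evidence of a direction or of a difference between the genotypes. In sid2-1 5 of the 15 rose, beside 3.2% of all probe sets, and none fell, with a median change of 1.29. In wild type 14 were called higher, beside 6.81% of all probe sets, with a median of 4.27. Those that rose in the mutant were LCR69, AT4G12490, AT2G43590, AT3G60420 and AT5G18470. The chitinase gene AT2G43590 had 7.63, 7.81 and 7.59 in sid2-1 at 4 °C, against 2.76, 2.82 and 2.81 in sid2-1 at 22 °C, a rise of 4.88 ± 0.55 from a low signal (SE, adjusted p = 0.00207). It was even over the cold mutant arrays and held under all 22 alternatives. The lipid transfer-type gene AT4G12490 had 7.6, 11.79 and 11.26 at 4 °C, against 4.32, 3.53 and 3.92 at 22 °C (6.29 ± 1.09, adjusted p = 0.0135). Its cold arrays spread over more than 4 log2 units. Its neighbour AT4G12500 had 3.63, 7.7 and 5.6 at 4 °C, against 2.54, 2.73 and 2.22 at 22 °C, without a call (3.15 ± 1.15, adjusted p = 0.161). With only the 6 arrays of the mutant AT4G12490 stood at adjusted p = 0.103 and with blocks within genotype at 0.0599.

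In the defence list, AT5G18470 and AT3G60420 were called in both genotypes with smaller values in the mutant. For neither was the difference between the responses called. AT5G18470 had 5.47, 5.79 and 6.92 in sid2-1 at 4 °C, against 4.3, 4.41 and 4.09 in sid2-1 at 22 °C (1.79 ± 0.42, SE, adjusted p = 0.0414). In wild type it had 9.18, 9.93 and 9.11 at 4 °C, against 4.44, 5.02 and 3.89 at 22 °C (4.96 ± 0.42), and the difference of -3.16 ± 0.59 was not called (adjusted p = 0.226). AT3G60420 changed by 2.18 ± 0.48 in sid2-1 (adjusted p = 0.0331) and by 4.23 ± 0.48 in wild type, on 1 of its 2 probe sets. The chitinase gene CHI (AT2G43570) had 3.88, 6.03 and 5.56 in sid2-1 at 4 °C, against 3.93, 3.22 and 4.44 in sid2-1 at 22 °C, with overlapping groups and no call (1.29 ± 0.75, adjusted p = 0.401). For 9 of the 15 genes the replicate 2 array read highest among the cold sid2-1 arrays, and the median over the list was 5.79 on it, against 4.75 on replicate 1 and 5.56 on replicate 3. In wild type at 4 °C, replicate 2 read highest for 14 of the 15. The call of AT5G18470 was lost when any 1 array was left out (adjusted p 0.0579 to 0.109) except for sid2-1 replicate 1 at 4 °C, wild-type replicate 2 at 4 °C and wild-type replicate 2 and 3 at 22 °C and that of AT3G60420 when any 1 array was left out (adjusted p 0.0517 to 0.107) except for sid2-1 replicate 1 at 4 °C, sid2-1 replicate 3 at 22 °C and wild-type replicate 2 and 3 at 4 °C. On the 6 arrays alone AT5G18470 and AT3G60420 stood at 0.14 and 0.129, and with blocks within genotype at 0.0777 and 0.0562.

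Wild type was set beside the mutant for the whole response. Of the 1428 probe sets called in sid2-1, 1128 were also called in wild type in the same direction and none in the opposite one, and 300 were not called in wild type. Of those 300, 281 had the same sign there. Wild type had 2956 called probe sets (13.0%), 6.81% of all higher and 6.19% lower. Whether a probe set called in 1 genotype differed between them rests on the difference of the responses, sid2-1 minus wild type, which was called for 14 probe sets (0.0615%), 13 negative (0.0572%) and 1 positive (0.0044%). An unadjusted p under 0.05 in that test was reached by 928. Same-numbered arrays of both genotypes at 1 temperature deviated together, and the fit behind the 14 calls leaves this out. With the replicate number as a block over all arrays 3 of the 14 stayed called, and with a block for each number and temperature none did (adjusted p 0.101 to 0.285, while 1401 reached an unadjusted p under 0.05). Blocks within genotype also left none (adjusted p 0.146 to 0.284).

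**Figure D4:**
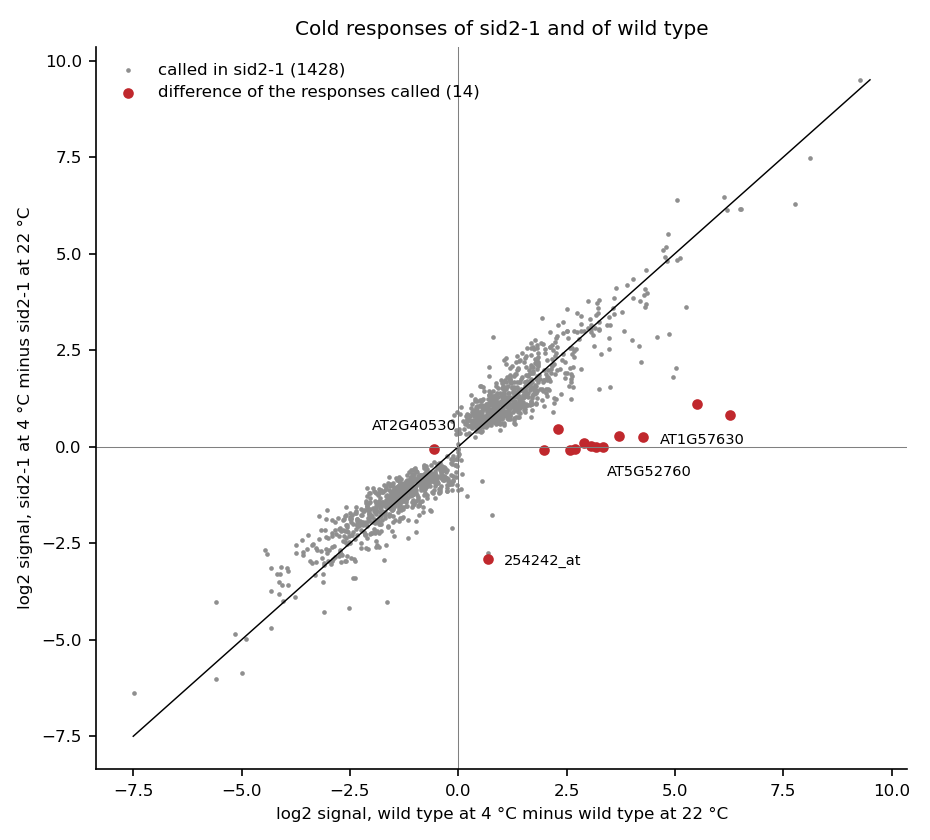
Log2 change at 4 °C minus 22 °C in sid2-1 (vertical axis) and in wild type (horizontal axis) for the 1428 probe sets called in sid2-1 (grey) and for the 14 whose difference between the responses was called without blocks (red), with a line of equal change. Of these, 12 were called higher in wild type and have smaller changes in sid2-1, and 254242_at lies at -2.91 in sid2-1 and 0.68 in wild type.

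For the genes of the cold regulon and of the sugar, starch and phospholipid lists, no difference between the genotypes was called. LTI30 changed by 6.45 ± 0.45 in sid2-1 and by 6.14 ± 0.45 in wild type, with a difference of 0.32 ± 0.64 (SE, adjusted p = 0.98). For AT5G26570 the difference was 0.33 ± 0.31, for TMT1 0.07 ± 0.42, for TMT2 1.11 ± 0.54, for SWEET17 0.31 ± 0.68 and for PMEAMT 0.86 ± 0.42. A missed threshold does not show that the genotypes respond alike. GI changed by 2.55 ± 0.24 in sid2-1 and by 1.67 ± 0.24 in wild type, with a difference of 0.88 ± 0.33 that was not called (adjusted p = 0.936).

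Of the 14 probe sets whose difference was called without blocks, 9 have a gene here, of which AT3G01830 alone stayed called with the replicate number as a block over all arrays (adjusted p = 0.0291) and none with a block for each number and temperature. AT1G57630, a TIR-domain gene, had 2.85, 2.85 and 3.16 in sid2-1 at 4 °C, against 2.9, 2.85 and 2.39 in sid2-1 at 22 °C, and 7.43, 7.69 and 6.25 in wild type at 4 °C, against 2.85, 2.85 and 2.85 in wild type at 22 °C. The mutant stayed near the lowest signals at both temperatures, and the difference of the responses was -4.03 ± 0.47 (SE, adjusted p = 0.0295). AT3G01830 read 2.99, 3.01 and 2.99 in sid2-1 at 4 °C, against 3.13, 2.99 and 2.88 in sid2-1 at 22 °C, and 6.75, 6.3 and 6.12 in wild type at 4 °C, against 3.15, 3.5 and 2.97 in wild type at 22 °C (-3.19 ± 0.25, adjusted p = 0.0135). MSRB9 (AT4G21850), a methionine sulfoxide reductase gene like MSRB6, read 2.27, 2.24 and 2.49 in sid2-1 at 4 °C, against 2.29, 2.58 and 2.33 in sid2-1 at 22 °C, and 5.26, 5.55 and 4.48 in wild type at 4 °C, against 2.33, 2.57 and 2.33 in wild type at 22 °C (-2.75 ± 0.34, adjusted p = 0.0439). None of the 3 genes was called in sid2-1, and each of the 3 was called higher in wild type.

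The differences were -3.43 ± 0.39 for AT5G39670, -3.34 ± 0.37 for the heavy-metal-domain gene AT5G52760, -2.81 ± 0.27 for the TIR-domain gene AT2G20142, -2.07 ± 0.2 for AT1G66090 and -1.84 ± 0.2 for AT5G43910 (SE, adjusted p of 0.0294, 0.0279, 0.0172, 0.0172 and 0.0279). In sid2-1 alone the values at 4 °C minus those at 22 °C were 0.27, 0.0, 0.1, -0.08 and 0.46 for these 5 genes, without a call. AT2G40530 had the single positive difference (0.51 ± 0.06, adjusted p = 0.0295), between values of 2.21 to 2.84 on all arrays that lie near the lowest signal. The number of called differences depended on single arrays: it was 0 without wild-type replicate 1 at 22 °C, where 873 probe sets had an unadjusted p under 0.05. At 4 °C, leaving out the replicate 2 array of wild type gave 46 called differences and the replicate 3 array 70. It was 6 without sid2-1 replicate 1 or replicate 2 at 22 °C and 3 without sid2-1 replicate 3 at 22 °C.

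The probe set 254242_at, which has no gene here, was the single one called in both the cold response of sid2-1 and the difference. It had 2.99, 3.38 and 3.44 in sid2-1 at 4 °C, against 5.79, 6.66 and 6.08 in sid2-1 at 22 °C, a change of -2.91 ± 0.24 (SE, adjusted p = 0.000708). In wild type it had 6.96, 7.38 and 6.91 at 4 °C, against 6.19, 6.68 and 6.35 at 22 °C. All 3 cold mutant arrays were below every other array of the study, and the difference was -3.58 ± 0.35 (adjusted p = 0.0172, or 0.0108 with the replicate number as a block and 0.101 with a block for each number and temperature).

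**Figure D5:**
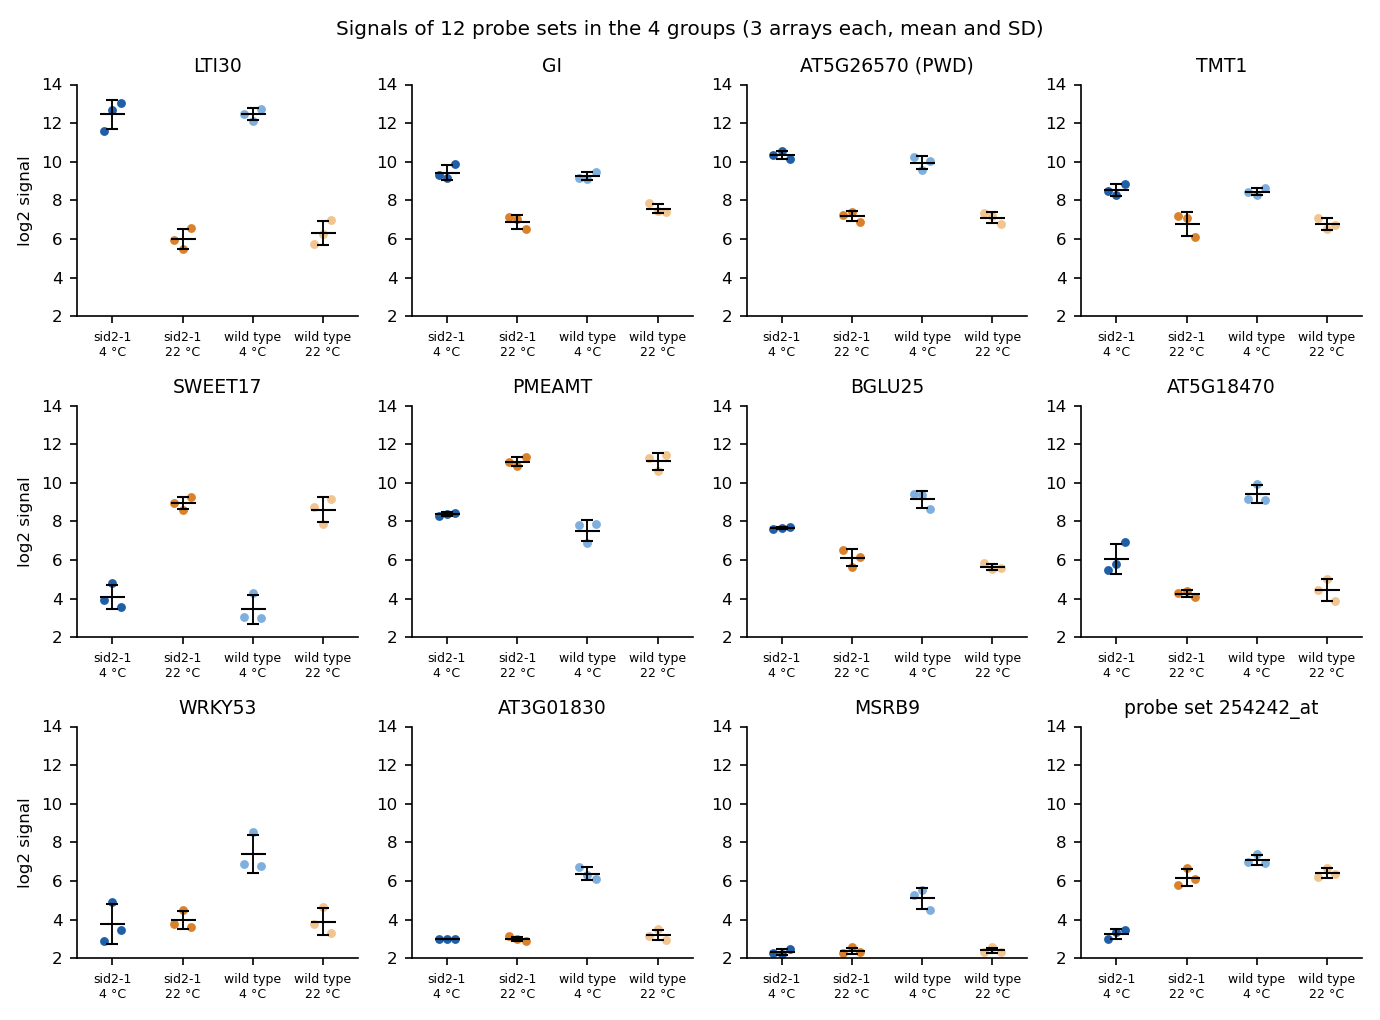
Log2 GCRMA signal (vertical axes) of 12 probe sets on every array, with the sid2-1 groups on the left and the wild-type groups on the right, each at 4 °C and then at 22 °C, with points for the 3 arrays of a group and bars for mean and SD. LTI30, GI, PWD and TMT1 are higher and SWEET17 and PMEAMT lower at 4 °C in both genotypes, while the wild-type arrays at 4 °C read highest for WRKY53, AT3G01830 and MSRB9, of which AT3G01830 and MSRB9 had a difference between the responses that was called without blocks and WRKY53 had none.

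Among genes called in sid2-1, those with the smallest p in the test of the difference are given as values, since no difference of theirs was called. Of 20 beta-glucosidases 2 rose and 1 fell in sid2-1, beside 3.2% of all probe sets called higher and 3.08% lower. The fall was that of BGLU40 (-2.67 ± 0.53, adjusted p = 0.0229), a call lost in the 6 arrays alone (adjusted p = 0.0708). It was also lost without sid2-1 replicate 2 or 3 at 4 °C or sid2-1 replicate 1, 2 or 3 at 22 °C (adjusted p 0.0558 to 0.0764). BGLU25 (AT3G03640), 1 of the 2 that rose, had 7.61, 7.65 and 7.73 in sid2-1 at 4 °C, against 6.52, 5.65 and 6.16 in sid2-1 at 22 °C, and 9.42, 9.37 and 8.65 in wild type at 4 °C, against 5.84, 5.55 and 5.58 in wild type at 22 °C. Its change was 1.55 ± 0.25 in sid2-1 (SE, adjusted p = 0.0102) and 3.49 ± 0.25 in wild type, with a difference of -1.94 ± 0.35 (adjusted p = 0.217). The groups of each genotype lay apart, and the cold wild-type arrays lay above the cold mutant ones. AT1G74640 had 6.55, 6.51 and 6.62 in sid2-1 at 4 °C, against 8.42, 8.16 and 8.07 in sid2-1 at 22 °C, and fell by 1.66 ± 0.15 (adjusted p = 0.000907), beside -0.64 ± 0.15 in wild type (difference adjusted p = 0.289). AT1G72940 fell by 1.77 ± 0.38 in sid2-1 (adjusted p = 0.0305), beside 0.79 ± 0.38 in wild type (difference -2.56 ± 0.54, adjusted p = 0.3). AT1G55690 rose by 1.03 ± 0.17 in sid2-1 (adjusted p = 0.0108), beside 0.07 ± 0.17 in wild type, with a difference adjusted p of 0.563. AT1G72940 lost its call in sid2-1 without sid2-1 replicate 1 or 3 at 4 °C or sid2-1 replicate 2 or 3 at 22 °C (adjusted p 0.077 to 0.0936). With the 6 arrays alone BGLU25 (adjusted p = 0.0676), AT1G72940 (0.1) and AT1G55690 (0.08) lost the call, and with blocks within genotype AT1G72940 (0.063) and AT1G55690 (0.0562).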

How the data were processed

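Transcript signals came from 1 Affymetrix array per sample. The deposited values are log2 signals per probe set, made by the authors with GCRMA per the submitters' processing notes, which also name limma. GCRMA corrects the background from probe sequence, so that folds against low signals depend on it. The versions, and which arrays were normalized together, are not given in the sources used here. Of 22810 probe sets, 64 controls were left out and 22746 tested. The platform table lists 14016 of them, 13513 with 1 gene and 503 with several. By Entrez number 13436 were joined to the reference gene table (TAIR10.1), which gave 13286 loci, and the other 9310 tested probe sets stay unnamed here.

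All 12 arrays entered 1 limma 3.58.1 fit in R 4.3.3 with a mean for each group (lmFit, contrasts.fit, eBayes; residual degrees of freedom 8, prior 0.609). It contrasted sid2-1 at 4 °C minus sid2-1 at 22 °C, the same in wild type, and the difference between both. P values are two-sided, adjusted by Benjamini-Hochberg over all 22746 probe sets and called under 0.05. The procedure was tested on simulated data. Tables were made with pandas 2.3.3 and plots with matplotlib 3.10.9, both in Python 3.11.15. The labels name separate plants' samples as biological replicates but no batch or scan.

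Of the genes called with no overlap between the groups, the rule named the 12 largest rises and falls with a mean above 4 in the lower group, 5 more each way from a lower signal, up to 4 called members of each list and direction (or 2 members as values), and up to 6 genes each way with the smallest p in the difference among those called in sid2-1, besides fixed markers. Of 677 listed loci 148 were measured, and 45 families were taken by gene symbol after the annotation's names were seen. Members and lists were chosen with earlier results of these data known. A planned count of promoter motifs was not run, because no promoter sequences were used here. Alternatives were the 6 sid2-1 arrays alone, replicate numbers as blocks (over all arrays or within genotype), 2 filters on low signals, an intensity trend, a robust prior, quantile normalization, median centring, array weights, and leaving out each array. The deviations of same-numbered arrays of sid2-1 and wild type from their group means correlated at 0.283 to 0.467 at 22 °C and at 0.211 to 0.252 at 4 °C, over probe sets with a mean above 4. Since every pair was over 0.1, the numbers were taken, from the data alone, to pair the genotypes within a temperature, and a block for each number and temperature was added for the difference after the data were seen.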

Additional observations from a re-analysis of the deposited data

Results flagged for a closer look

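The cold responses of both genotypes differed at an adjusted p under 0.05, by limma's test of the difference itself, for 10 of the results given above, in the fit without blocks. As log2 changes in sid2-1 minus those in wild type, the differences were -4.03 for AT1G57630, -3.58 for the probe set 254242_at, -3.43 for AT5G39670, -3.34 for AT5G52760, -3.19 for AT3G01830, -2.81 for AT2G20142, -2.75 for MSRB9, -2.07 for AT1G66090 and -1.84 for AT5G43910. For AT2G40530 the difference was 0.51. It lies between signals close to the lowest value on all arrays. With the replicate number as a block, those of AT3G01830 and 254242_at stayed called. With a block for each number and temperature none of the 10 did (adjusted p 0.101 to 0.285). The causes of these differences were not tested.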

How the results depend on the processing

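The 1428 called probe sets became 376 with the 6 sid2-1 arrays alone (179 higher, 197 lower), 914 with replicate blocks within genotype (457 higher, 457 lower) and 2243 over probe sets with a mean above 4 (1123 higher, 1120 lower). Leaving out 1 array gave 788 to 1457 called, 372 to 728 higher and 389 to 729 lower. The 788 came without sid2-1 replicate 1 at 22 °C, with 714 of the 1428 kept. The 14 called differences became 3 with a replicate block (0 higher, 3 lower), 0 with a replicate block within temperature, which was chosen after seeing the data (0 higher, 0 lower; 1401 at an unadjusted p under 0.05), 0 with blocks within genotype (0 higher, 0 lower; 1297 at an unadjusted p under 0.05), 30 over probe sets with a mean above 4 (0 higher, 30 lower), 0 higher with median centring, and 0 to 70 without 1 array (0 to 10 higher, 0 to 67 lower). Other settings moved no count by over 1.5 times, and no named gene changed direction under the alternatives run. The balance of calls did turn. In sid2-1 it was 728 higher and 700 lower, against 179 and 197 with the 6 arrays alone, 372 and 416 or 459 and 523 when sid2-1 replicate 1 or 3 at 22 °C was left out, 647 and 652 when it was wild-type replicate 1 at 22 °C and 728 and 729 when it was wild-type replicate 2 at 4 °C. In the difference it was 1 higher and 13 lower, against 10 and 7 without wild-type replicate 3 at 22 °C and 6 and 5 without sid2-1 replicate 2 at 4 °C. Of 166 named called genes 44 were called under all 22 alternatives, and leaving out 1 array kept 98 to 151. Losses given beside single genes are those without 1 array, with the 6 arrays alone and with blocks within genotype. Of the 166, 15 lost the call with a replicate block over all arrays, 9 with a robust prior and 8 with array weights. With quantile normalization 4 lost it, and with an intensity trend 1. The causes of lost calls were not tested, and some settings held fewer arrays or probe sets. Same-numbered arrays of sid2-1 at 4 °C and 22 °C deviated from their group means with correlations of 0.179, 0.031 and 0.066, so the numbers were not taken to pair the arrays of this contrast, unlike those of both genotypes at 1 temperature. With replicate numbers as a block over all arrays 1826 probe sets were called, 1267 of them among the 1428. Low signals and the number of arrays limit what could be detected.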
